A study of Homo sapiens with 6 samples.

Results

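The genes studied here encode the machinery that copies DNA in S phase, and are a list of 44 genes fixed by name: the origin recognition complex, the licensing factors, the MCM helicase, CDC45 and GINS, the replicative polymerases, the sliding clamp and its loader, the single-strand binding protein RPA, FEN1 and LIG1, and 3 genes of nucleotide supply. Transcript identifiers in the counts were matched to gene symbols, and 41 of the 44 genes were found among the 37192 genes matched. MCM4, MCM7 and LIG1 had no counted transcript matched by identifier and were not analysed here. Of the 41 genes, 37 passed the minimum levels for an estimate of RNA half-life, among 9925 transcription units (TUs) with an estimate, of which 8733 were mRNAs.

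All libraries came from K562, a human chronic myelogenous leukemia cell line, grown without treatment, in RPMI-1640 with serum and antibiotics. In PRO-seq (2 libraries) the RNA still held by engaged polymerases is sequenced, which reads out ongoing transcription, and in total RNA-seq with rRNA removed (4 libraries) the RNA present at steady state is sequenced. Relative half-life was the RNA-seq TPM divided by the PRO-seq TPM of a TU, given here as log2 relative to the median mRNA, so that 0 is the median mRNA and 1 is a 2-fold longer half-life. It has no time unit, and TPM of the 2 assays is not on a common scale: the median mRNA had a log2 ratio of -0.64 before it was set to 0. The ratio stands for half-life only where RNA production and decay are in equilibrium, as the paper assumes. PRO-seq counts engaged polymerases, so slower elongation also raises its level, a limit that the paper states. The values below are not corrected for elongation rate. The paper found half-life estimates from these new libraries more variable than those from earlier public data, and less close to published estimates. It based its main analyses on the earlier data. An estimate needed a PRO-seq level above 10 TPM and an RNA-seq level above 1 TPM, where TPM is the count per base of exon (RNA-seq) or of gene body (PRO-seq), scaled to the same total in every library.

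Counts on TUs ranged from 5732780 to 9002746 per RNA-seq library and were 6993816 and 7245632 for PRO-seq. The libraries came from cells of 1 flask, so the tests below cover the spread between these libraries and not between cultures. RNA-seq replicates 1 and 3, and replicates 2 and 4, were closer to each other (chi-square per degree of freedom of 1.12 in both pairs) than the other RNA-seq pairs (1.74 to 2.11). The p-values below treat the 4 libraries as separate replicates. With each close pair summed, 33 members were longer and 3 shorter than the median mRNA, against 3963 and 4916 of all 9925 TUs. The edgeR adjusted p of MCM5 was then 3e-15, against 1.8e-22 with the pairs kept apart. Replicates 1 and 3 alone, and replicates 2 and 4 alone, each gave 33 members longer and 3 shorter than the median mRNA, as did all 4 libraries. Of all TUs, 3974 were longer and 4874 shorter of 9899 with replicates 1 and 3. With replicates 2 and 4 it was 3967 and 4929 of 9938. The 11 K562 markers looked for were all above 10 RNA-seq TPM. Of 8 markers of other cell types that were found, EPCAM, an epithelial adhesion molecule, lay at 120 RNA-seq TPM and the others below 1.

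In eukaryotic replication, ORC binds origins and, with CDC6 and CDT1, loads the MCM2-7 helicase, which CDC45 and GINS then turn into the active helicase. DNA polymerase alpha-primase lays down primers, polymerases epsilon and delta extend them on the leading and lagging strands with the clamp PCNA, and FEN1 and LIG1 join the lagging-strand fragments. Many of these genes are transcribed towards S phase under the E2F family of transcription factors, and K562 cells were not sorted by cell cycle phase. In a bulk sample, fewer cells in S phase and less RNA in each of them cannot be told apart.

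The promoters are shown first, because letters that E2F factors recognise stood in a larger share of them than of the promoters of other genes. RefSeq windows (GRCh38.p14) of 250 bases before to 50 after the gene's start were found for 38 members, in 49 windows. One of 4 letter strings of the E2F type (TTTGGCGC, TTTCCCGC, TTTGCCGC or TTTCGCGC, on either strand) stood in 18 of the 49 windows (36.7%), against 3.31% of 35116 windows of all genes and 5.31% of 10311 windows of the mRNAs with a half-life estimate. The 18 members with such letters were CDC6, CDT1, GMNN, ORC3, MCM2, MCM3, MCM6, MCM7, GINS1, GINS2, GINS3, POLA1, POLA2, POLE, POLE2, PCNA, RFC3 and LIG1. Of those with a half-life estimate, the members with the longest (PCNA) and the shortest half-life (POLE) and with the highest (MCM3) and the lowest PRO-seq TPM (RFC3) are given below, with the matched letters in capitals, 5′ to 3′ on the gene's strand. They lie at chr20:5126573-5126872 (PCNA, minus strand), chr12:132687293-132687592 (POLE, minus strand), chr6:52284693-52284992 (MCM3, minus strand) and chr13:33817899-33818198 (RFC3, plus strand). This choice used lengths as counted. With the span of the gene's canonical transcript, PCNA had a log2 half-life of 1.63 and a PRO-seq TPM of 249, and RFC3 a PRO-seq TPM of 134.
PCNA: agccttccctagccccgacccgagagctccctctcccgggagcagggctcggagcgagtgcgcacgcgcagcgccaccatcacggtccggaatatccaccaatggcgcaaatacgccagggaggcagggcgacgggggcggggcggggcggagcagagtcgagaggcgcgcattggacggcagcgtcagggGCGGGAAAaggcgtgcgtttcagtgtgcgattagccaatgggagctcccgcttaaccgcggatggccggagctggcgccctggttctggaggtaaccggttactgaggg
POLE: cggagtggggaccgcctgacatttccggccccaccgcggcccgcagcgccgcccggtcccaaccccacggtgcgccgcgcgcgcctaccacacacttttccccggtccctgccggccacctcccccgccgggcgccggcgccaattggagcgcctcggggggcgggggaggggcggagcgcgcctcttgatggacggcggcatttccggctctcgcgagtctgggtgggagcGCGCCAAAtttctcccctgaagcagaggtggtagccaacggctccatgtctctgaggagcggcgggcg
MCM3: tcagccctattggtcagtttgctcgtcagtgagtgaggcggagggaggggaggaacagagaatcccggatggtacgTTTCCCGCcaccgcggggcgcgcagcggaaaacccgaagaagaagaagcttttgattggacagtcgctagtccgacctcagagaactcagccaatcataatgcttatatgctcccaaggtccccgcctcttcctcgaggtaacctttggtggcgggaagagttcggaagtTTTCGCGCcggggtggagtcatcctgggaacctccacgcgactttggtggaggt
RFC3: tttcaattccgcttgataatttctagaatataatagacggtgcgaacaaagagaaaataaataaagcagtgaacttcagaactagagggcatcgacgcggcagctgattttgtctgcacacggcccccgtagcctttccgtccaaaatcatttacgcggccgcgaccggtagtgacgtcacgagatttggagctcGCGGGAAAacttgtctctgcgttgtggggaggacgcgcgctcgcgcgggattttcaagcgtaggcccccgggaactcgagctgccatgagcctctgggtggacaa

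The letters began 59 bases before the start in PCNA, 18 before it in POLE, 55 before it in RFC3, and 174 and 4 bases before it in MCM3, the only gene of these 4 with 2 matches. The RefSeq start of the window lay 4 bases downstream of the start of the counted transcript in PCNA, at the same base in POLE, and 139 and 80 bases downstream in MCM3 and RFC3. CCAAT, the box of the factor NF-Y, stood in 29 of the 49 windows (59.2%, against 34.6% of all windows and 35.7% of those of the mRNAs with an estimate), and GGGCGG, the letters of Sp1, in 36 (73.5%, against 45.0% of all windows and 68.9% of those of the mRNAs with an estimate). TTTGAA, the core of the element found in many promoters active in G2 and mitosis, stood in 1 window, that of RRM1 (2.04%, against 15.2% of all windows and 10.4% of those of the mRNAs with an estimate). The E2F letters can overlap GGGCGG, as they do in the PCNA window, and a match is a description of the window, not a bound site.

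Members with and without E2F letters overlapped in nascent transcription. Over the 14 with an estimate, the median PRO-seq TPM was 96.7 (range 20.6 to 242), and over the 20 with a window but without these letters it was 79.7 (range 17.9 to 340). Their median log2 half-life was 1.26 and 1.04, with 12 longer and 2 shorter than the median mRNA in the former and 19 longer and 1 shorter in the latter. These values are descriptions without a test, with lengths as counted.

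Most mRNAs of the replication machinery had a longer relative half-life than the median mRNA. Of the 37 members with an estimate, 33 were longer, 3 were shorter (ORC1, CDT1 and POLE) and GINS4 was not called, in edgeR's quasi-likelihood test with a Benjamini-Hochberg adjusted p under 0.05. Among all 9925 TUs tested, 40.4% were called longer and 50.0% shorter, and among the 8733 mRNAs 45.4% were longer and 44.9% shorter. The members' shares were 89.2% and 8.11%. Their median log2 half-life was 1.14, or 2.21 times that of the median mRNA (quartiles 0.48 and 1.85), against mRNA quartiles of -1.06 and 1.08. With a single library of each assay at a time (8 combinations) this median ranged from 1.11 to 1.29, and 34 members lay above the median mRNA in all 8, against 46.0% of mRNAs. When a change of at least 2-fold was tested, 21 members (56.8%) were longer and 0 shorter, against 21.5% and 29.2% of all TUs. The same edgeR test without adjustment also gave 0 shorter members at p under 0.05. DESeq2, run without the 2-fold minimum, called 3 members shorter, against 4811 of all 9925 TUs.

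The PRO-seq minimum of 10 TPM removed members with a low PRO-seq level, so these counts describe the 37 members that passed. Counting also depended on the transcript the authors chose for each gene. For 5 members its span was over 1.5 times that of the canonical transcript of the gene (RRM2, RFC3, GINS3, POLD3 and PCNA), and 6 shared over 1% of their body with another counted TU on the same strand. Among the 31 members with an estimate and neither feature, 27 were longer and 3 shorter, with a median of 1.11. Of the 7297 mRNAs with neither feature, 45.3% were longer and 44.7% shorter.

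**Figure D1:**
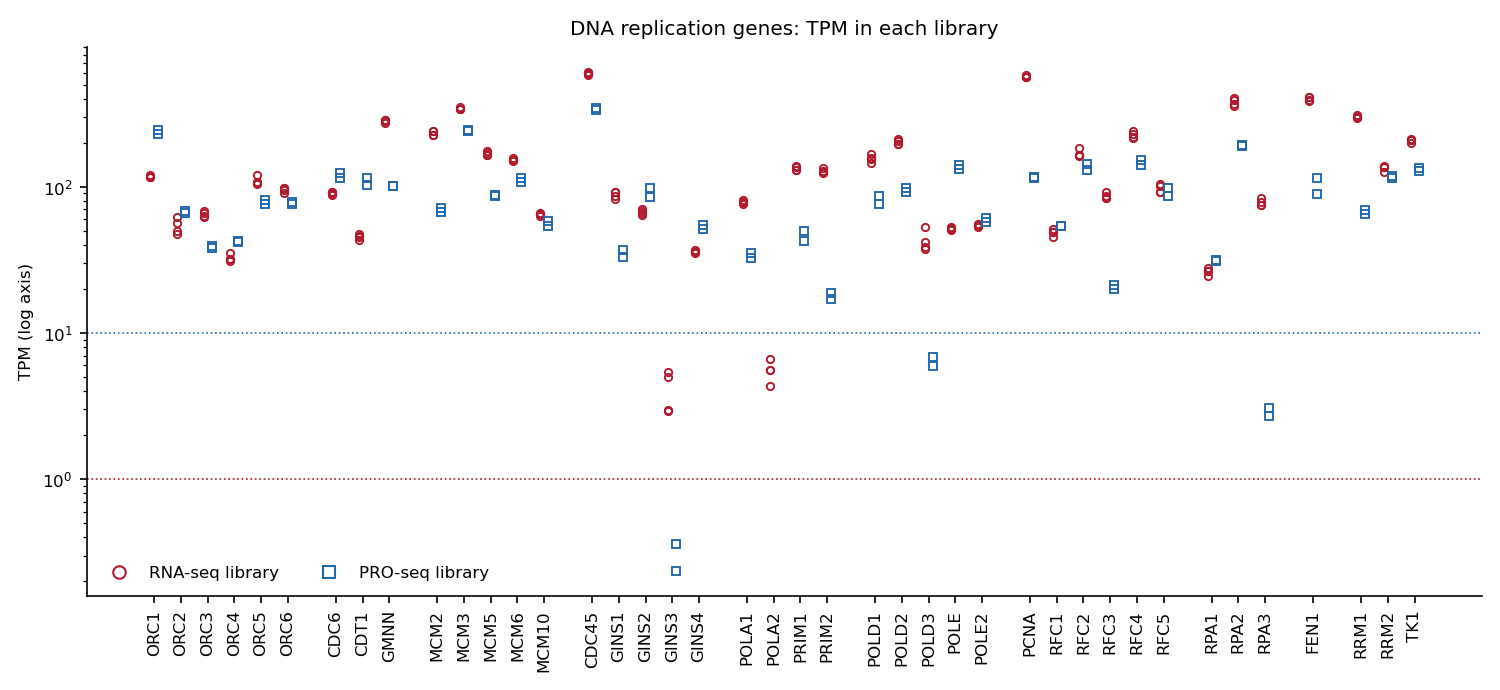
TPM (log axis) of the 41 members found in each of 4 RNA-seq libraries (red circles) and 2 PRO-seq libraries (blue squares), ordered by role, with dotted lines at the minimum levels of 10 TPM for PRO-seq and 1 TPM for RNA-seq. The libraries of an assay lie close together for most members, and GINS3, POLD3 and RPA3 lie under the PRO-seq minimum, while POLA2, at 0 in both PRO-seq libraries, has no square.

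Nascent transcription and RNA level were both high for most of the list. The median member had 118 RNA-seq TPM and 87.0 PRO-seq TPM, against 31.2 and 47.5 for the median mRNA, and 36 members lay above the median mRNA in RNA-seq and 29 in PRO-seq. The spread over members was 22.4-fold in RNA-seq, from RPA1 (26.5 TPM) to CDC45 (594 TPM), and 18.9-fold in PRO-seq, from PRIM2 (17.9 TPM) to CDC45 (340 TPM), with lengths as counted. Across the 37 members, Spearman's rho between the assays' TPM was 0.574, beside 0.551 across the 8733 mRNAs. The points share libraries, and genes are not independent replicates. Half-life had a rho of -0.499 with exon length across members (-0.331 across mRNAs), and of 0.0026 with span (0.0289 across mRNAs). With RNA-seq TPM its rho was 0.662 across members (0.792 across mRNAs), and with PRO-seq TPM -0.19 (-0.0125 across mRNAs). Abundant mRNAs thus tended to have a high ratio, and the list was not compared with mRNAs of the same RNA-seq level. Since exon length and span enter the TPM, and TPM enters the ratio, these relations are descriptions.

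**Figure D2:**
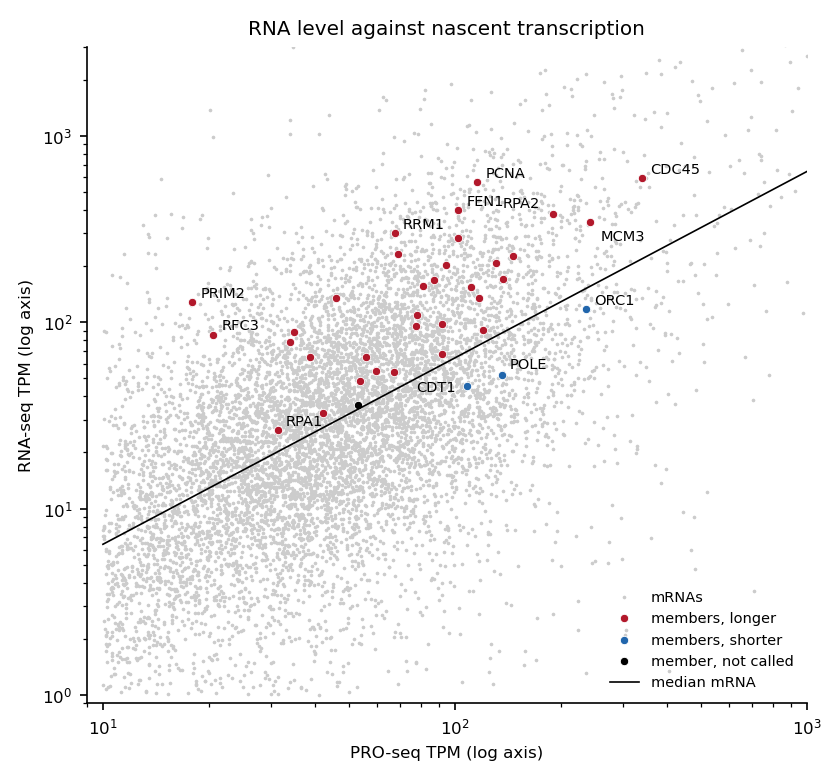
RNA-seq TPM against PRO-seq TPM (both log axes) of mRNAs with an estimate (grey) and of the 37 members (red longer, blue shorter, black not called), with the line of the median mRNA; mRNAs beyond the axes are not drawn. Of the members, 33 called longer lie above the line, and POLE, CDT1 and ORC1 below it.

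The origin recognition complex marks origins, and 5 of its 6 subunit mRNAs were longer-lived than the median mRNA. The exception was ORC1, the largest subunit, whose protein varies over the cell cycle. ORC1 RNA-seq TPM was 117, 117, 120 and 117 in replicates 1 to 4, and PRO-seq TPM was 230 and 243, with little spread in either assay. Its log2 half-life was -0.37 (SE 0.043, edgeR adjusted p = 3.4e-09), and its PRO-seq TPM was above that of 96.1% of mRNAs. ORC3 was the longest of the complex, with RNA-seq TPM of 62.7, 68.3, 62.5 and 65.8 and PRO-seq TPM of 39.1 and 38.3. Its half-life was 1.39 (SE 0.060, edgeR adjusted p = 1.1e-19), with a range over library combinations of 1.29 to 1.48 that did not overlap that of ORC1 (-0.42 to -0.32). ORC5 (1.13), ORC6 (0.93), ORC2 (0.32) and ORC4 (0.26) lay between them, each called longer. When all TUs with at least 1 summed count were kept, the median mRNA moved by -0.63 on the log2 scale, and ORC1 was then called longer (0.26, edgeR adjusted p = 3.8e-07).

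Of the licensing factors, GMNN was far above CDC6 and CDT1. GMNN encodes geminin, which binds CDT1 and blocks relicensing after S phase has begun. Its RNA-seq TPM was 287, 284, 275 and 280 and its PRO-seq TPM 101 and 102, for a log2 half-life of 2.11 (SE 0.065, edgeR adjusted p = 1.5e-23). CDT1, the loader that geminin inhibits, had RNA-seq TPM of 46.3, 47.2, 45.3 and 43.2 and PRO-seq TPM of 103 and 114. Its half-life was -0.61 (SE 0.11, edgeR adjusted p = 3.5e-06), on 253 summed PRO-seq counts. CDC6, the ATPase that loads MCM with ORC, had a half-life of 0.24 (SE 0.059). The PRO-seq TPM of the 3 genes lay within 1.18-fold (102 to 120) while their RNA-seq TPM spanned 6.17-fold (45.7 to 282). The inhibitor and its target thus had nearly the same PRO-seq level and differed in RNA level. CDC6 was no longer called without PRO-seq replicate 2 (0.15, edgeR adjusted p = 0.052), and CDT1 lay at 0.02 with all TUs of at least 1 summed count.

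All 5 genes analysed of the MCM family were called longer. MCM2, a subunit of the helicase ring, had RNA-seq TPM of 239, 226, 241 and 225 and PRO-seq TPM of 66.7 and 71.5. Its log2 half-life of 2.39 (SE 0.056, edgeR adjusted p = 1.1e-26) was above that of 92.6% of mRNAs. MCM10, a firing factor outside the ring, was the lowest at 0.85 (SE 0.055, edgeR adjusted p = 3.0e-15), with RNA-seq TPM of 64.7, 64.9, 66.0 and 63.3 and PRO-seq TPM of 53.6 and 58.2. The other ring subunits were MCM5 (1.59), MCM3 (1.14) and MCM6 (1.11). Within the ring the 2 assays ordered the subunits differently: MCM2 had the lowest PRO-seq TPM of the 4 (69.1) and the next to highest RNA-seq TPM (233), below MCM3 (343).

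CDC45, which joins MCM2-7 in the active helicase, had the highest level of the list in both assays as counted, although RRM2 would exceed it in PRO-seq (933 TPM) with its canonical span. Its RNA-seq TPM was 591, 585, 610 and 599 and its PRO-seq TPM 345 and 334, above 97.5% and 97.8% of mRNAs. Its log2 half-life was 1.45 (SE 0.037, edgeR adjusted p = 1.0e-25). The GINS subunits, which complete that helicase, differed among themselves. GINS1 had RNA-seq TPM of 86.8, 92.4, 82.1 and 92.3 and PRO-seq TPM of 36.8 and 33.0, and a half-life of 1.98 (SE 0.068, edgeR adjusted p = 2.6e-22). GINS4, on chromosome 8, had RNA-seq TPM of 35.9, 35.8, 35.3 and 37.2 and PRO-seq TPM of 51.3 and 54.9. Its half-life of 0.08 (SE 0.082, edgeR adjusted p = 0.37; range over library combinations 0.00 to 0.15) did not differ from the median mRNA beyond the spread between libraries. GINS2 (0.20, edgeR adjusted p = 0.019) was close to it. The GINS2 call was lost with DESeq2 (0.19, adjusted p = 0.063). In the edgeR fit it was lost at the stricter minimums of 20 and 2 TPM (0.16, adjusted p = 0.058), against mRNAs in the same decile of PRO-seq TPM (0.11, adjusted p = 0.17), without RNA-seq replicate 1 (0.16, adjusted p = 0.055) and without PRO-seq replicate 1 (0.10, adjusted p = 0.32). GINS4 was called longer by edgeR with the canonical span (0.19, adjusted p = 0.032) and with all TUs of at least 1 summed count (0.70, adjusted p = 5.5e-15).

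GINS3 gave no estimate. It had 11, 7, 8 and 5 RNA-seq counts (4.96, 2.99, 5.37 and 2.93 TPM) and 9 and 6 PRO-seq counts (0.362 and 0.237 TPM). The counted transcript has no coding sequence, spans 97.2 kb, or 7.11 times the canonical transcript, and holds 4.73% of the canonical exon bases. These values are therefore those of a minor transcript, not of the GINS3 mRNA.

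The 3 genes of DNA polymerase alpha-primase with an estimate were all among the longest of the list. PRIM2, the large primase subunit, had the highest half-life of all members at 3.47 (SE 0.057, edgeR adjusted p = 1.1e-30), or 11.1 times the median mRNA. Its RNA-seq TPM was 127, 124, 128 and 135 and its PRO-seq TPM 18.8 and 17.1. POLA1, the catalytic subunit on the X chromosome with a span of 303 kb, was the lowest of the 3 at 1.85 (SE 0.046, edgeR adjusted p = 5.0e-26), with RNA-seq TPM of 76.3, 78.6, 81.8 and 78.2 and PRO-seq TPM of 35.3 and 32.7. PRIM1, the catalytic primase subunit, lay at 2.19, counted on a transcript annotated for nonsense-mediated decay that holds 98.7% of the canonical exon bases. As counted, all 3 were below the median mRNA in PRO-seq and above it in RNA-seq. PRIM1, at 45.9 PRO-seq TPM, was only just below the median mRNA (47.5 TPM). Reads in length shared on the same strand are ambiguous to the counter, so the levels of PRIM1 and PRIM2 can be too low. PRIM2 shares 43.1% of its body and 38.0% of its exon bases with other TUs on the same strand, its pseudogene copy PRIM2BP among them, and PRIM1 shares 45.2% and 27.1%, among others with NACA. With the shared length left out, their half-lives were 3.40 and 1.82.

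POLA2, the regulatory subunit of the same polymerase, had 77, 96, 40 and 59 RNA-seq counts (5.59, 6.60, 4.32 and 5.55 TPM) and 0 counts in both PRO-seq libraries. Its body lies wholly within that of another counted TU on the same strand, and such reads are ambiguous to the counter. Over all 753 mRNAs whose body is wholly shared on the same strand, 7.2% had any PRO-seq count, against 77.7% of 822 shared on the opposite strand alone. The value of 0 for POLA2 is therefore no measurement of its transcription. Of its exon bases, 55.8% are shared on the same strand too, so its RNA-seq TPM is also too low by an unknown amount.

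The replicative polymerases held both the shortest member and some of the longer ones. POLE, the catalytic subunit of polymerase epsilon, had the shortest half-life of the list at -0.75 (SE 0.042, edgeR adjusted p = 9.4e-17), or 0.595 of the median mRNA. Its RNA-seq TPM was 53.3, 51.9, 51.7 and 50.7 and its PRO-seq TPM 132 and 140, and its half-life lay between -0.82 and -0.68 in all 8 library combinations. POLE2, its partner subunit, had nearly the same RNA-seq level (54.6 TPM) from a PRO-seq level of 59.6 TPM, and a half-life of 0.51. POLD2, an accessory subunit of polymerase delta, was the longest of the group at 1.74 (SE 0.076, edgeR adjusted p = 1.2e-19), with RNA-seq TPM of 213, 197, 205 and 196 and PRO-seq TPM of 91.9 and 97.4. POLD1, the catalytic subunit of polymerase delta, lay at 1.59, counted on a transcript annotated for nonsense-mediated decay that holds 96.9% of the canonical exon bases.

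POLD3, another accessory subunit, had RNA-seq TPM of 38.6, 37.5, 41.8 and 52.7 and PRO-seq TPM of 6.88 and 5.92, under the PRO-seq minimum. Its counted transcript spans 125 kb, or 2.47 times the canonical one, and holds 10.3% of the canonical exon bases. With the canonical span for PRO-seq alone, its PRO-seq TPM was 12.9 and its log2 ratio 2.14 relative to the median mRNA (edgeR adjusted p = 8.1e-16). The RNA-seq side stayed that of the counted transcript, so this value is no estimate for the canonical POLD3 mRNA.

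All 6 genes of the sliding clamp and its loader were called longer. PCNA, the clamp, had RNA-seq TPM of 562.2, 566.2, 581.8 and 564.0 and PRO-seq TPM of 114 and 117. Its log2 half-life of 2.93 (SE 0.055, edgeR adjusted p = 2.7e-29) was above that of 95.9% of mRNAs. RFC1, the large subunit of the loader, was the lowest at 0.48 (SE 0.054, edgeR adjusted p = 9.7e-10), with RNA-seq TPM of 45.5, 48.9, 48.7 and 51.4 and PRO-seq TPM of 54.1 and 53.7. The small subunits were RFC3 (2.70), RFC4 (1.27), RFC2 (0.95) and RFC5 (0.73).

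The values of PCNA and RFC3 rest on the length counted. The PCNA transcript spans 11.7 kb against 5.01 kb for the canonical one, and with the canonical span, on the assumption that all its PRO-seq counts fell there, its PRO-seq TPM was 249 and its half-life 1.63 (SE 0.057, edgeR adjusted p = 1.0e-22). The RFC3 transcript spans 148 kb against 19.4 kb and holds 39.4% of the canonical exon bases. With the canonical span, on the same assumption, RFC3 turned from longer to shorter, at -0.20 (SE 0.063, edgeR adjusted p = 0.0046). The RNA-seq side stayed that of the counted transcript, so -0.20 is not a corrected estimate. This setting was chosen after seeing the data.

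RPA coats single-stranded DNA, and its large and middle subunits were both called longer. RPA2 had RNA-seq TPM of 369, 393, 358 and 403 and PRO-seq TPM of 189 and 192, with a log2 half-life of 1.64 (SE 0.049, edgeR adjusted p = 7.2e-24). RPA1 had the lowest RNA-seq level among members with an estimate, at 27.8, 26.6, 26.6 and 24.6 TPM, and PRO-seq TPM of 31.6 and 31.3, with a half-life of 0.39 (SE 0.066, edgeR adjusted p = 3.0e-06). RPA3, the smallest subunit, had RNA-seq TPM of 75.5, 75.6, 83.2 and 78.8 but PRO-seq TPM of only 3.05 and 2.71, on 64 and 58 counts over a span of 82.1 kb, and gave no estimate. Of its body, 94.8% overlaps TUs on the opposite strand and none on the same strand. The part of that overlap in the low PRO-seq value was not tested.

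FEN1 removes the flap at the end of each lagging-strand fragment. Its RNA-seq TPM was 394, 410, 387 and 410 and its PRO-seq TPM 89.5 and 115, for a log2 half-life of 2.61 (SE 0.086, edgeR adjusted p = 9.1e-23), above that of 94.0% of mRNAs. Its gene spans 4.33 kb, with 2 exons, so its PRO-seq value rests on 77 and 101 counts, and its PRO-seq replicates differed by 25.1% of their mean, the most among the members with an estimate (median 5.8%).

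Among the genes of nucleotide supply, RRM1, the large subunit of ribonucleotide reductase, had RNA-seq TPM of 297, 302, 299 and 309 and PRO-seq TPM of 65.6 and 69.2. Its log2 half-life was 2.80 (SE 0.046, edgeR adjusted p = 7.9e-31). TK1, the salvage thymidine kinase of S phase, lay at 1.29. RRM2, the small subunit whose level limits the enzyme in S phase, was the shortest of the 3 as counted, at 0.84 (SE 0.046, edgeR adjusted p = 4.0e-17), with RNA-seq TPM of 136, 136, 127 and 138 and PRO-seq TPM of 115 and 119. Its counted transcript is annotated for nonsense-mediated decay, spans 76.5 kb against 8.68 kb for the canonical one and holds 33.1% of the canonical exon bases, so both its RNA-seq and its PRO-seq value can be off. With the canonical span in PRO-seq its half-life turned to -2.35 (edgeR adjusted p = 5.7e-30), and the deposited counts do not settle its direction.

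Subunits of 1 complex differed in PRO-seq level. The range of log2 TPM from the highest to the lowest subunit was wider in PRO-seq than in RNA-seq in 7 of 8 complexes, ribonucleotide reductase being the exception, and the ranges of single libraries did not overlap between the assays in any of the 8. In ORC the range was 2.61 in PRO-seq (SD 0.080 over libraries, n = 2) and 1.86 in RNA-seq (SD 0.066, n = 4), or 6.11-fold and 3.63-fold, with ORC1 highest in both. In MCM2-7, with 4 subunits, it was 1.81 (SD 0.045, n = 2) and 1.16 (SD 0.029, n = 4), with MCM3 highest in both. In polymerase alpha-primase, with 3 subunits, it was 1.35 (SD 0.059, n = 2) and 0.78 (SD 0.065, n = 4). The PRO-seq range of this complex ran from PRIM1 to PRIM2, which share 45.2% and 43.1% of their bodies with other TUs on the same strand. Its ranges with the shared length left out were not computed.

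In GINS, polymerase delta and RPA the PRO-seq range rested on a subunit below the PRO-seq minimum. Without it, the range was 1.40 in PRO-seq and 1.30 in RNA-seq for GINS1, GINS2 and GINS4. For POLD1 and POLD2 it was 0.22 and 0.37, and for RPA1 and RPA2 2.60 and 3.85, so that 3 of 8 complexes were then wider in RNA-seq. With the canonical span, RFC became narrower in PRO-seq (1.62, against 2.83 as counted and 2.22 in RNA-seq), and ribonucleotide reductase wider (4.10, against 0.80 as counted and 1.16 in RNA-seq). ORC, MCM2-7 and polymerase alpha-primase kept the wider PRO-seq range in both settings, which were added after seeing the data. Neither setting left out the length shared by PRIM1 and PRIM2. GINS kept the wider range too, but without GINS3 its ranges in single libraries overlapped between the assays. PRO-seq TPM was then highest for GINS2 (84.9 and 98.7) and lowest for GINS1 (36.8 and 33.0). With the canonical span the GINS range was 5.34 in PRO-seq and 4.47 in RNA-seq. There GINS3, counted on a minor transcript, was lowest in both assays.

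Other genes of the pathway had both longer and shorter half-lives than the median mRNA. Of 39 further replication genes (origin firing, fork protection, chromatin assembly, RNase H2, topoisomerases and nucleotide metabolism), 36 had an estimate. Of these, 24 were longer (66.7%), 8 shorter (22.2%) and 4 not called, with a median log2 half-life of 0.74 (quartiles -0.09 and 1.19). Over all TUs 40.4% were longer and 50.0% shorter, and over mRNAs 45.4% and 44.9%. The longest were POLE4, a histone-fold subunit of polymerase epsilon (3.15, SE 0.13, edgeR adjusted p = 4.3e-20), PCLAF, which binds PCNA (2.62), and RNASEH2B, a subunit of RNase H2 (2.56). POLE4 lay above the median mRNA in all 8 library combinations (2.80 to 3.32), with RNA-seq TPM of 97.5, 101, 80.6 and 101 and PRO-seq TPM of 15.5 and 18.1.

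The shortest of these were CHTF8, a subunit of the alternative clamp loader (-3.05, SE 0.28, edgeR adjusted p = 2.7e-11), RNASEH2C, the third subunit of RNase H2 (-1.69), and TICRR, which acts with TOPBP1 in origin firing (-1.37). CHTF8 lay just over the minimum in RNA-seq, at 0.968, 0.667, 1.18 and 1.48 TPM against 10.3 and 16.2 TPM in PRO-seq. RNASEH2B and RNASEH2C thus stood at opposite ends of the list, although both were counted on transcripts longer than the canonical one (1.88 and 2.07 times). RNASEH2A, the other RNase H2 gene of the list, had no estimate. Polymerase epsilon also had subunits at both ends, with POLE4 at 3.15, POLE3 at 0.81, POLE2 at 0.51 and POLE at -0.75.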

How the data were processed

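Nascent and steady-state RNA of K562 cells was measured in 2 libraries by PRO-seq and in 4 by total RNA-seq. For each library the authors deposited raw HTSeq counts per transcript, not normalized; their reads had been trimmed (Cutadapt) and aligned to GRCh38 (HISAT2). Neither the tools' versions nor how strand was handled is given in the sources used here. Of 43172 transcripts, 37339 (86.5%) had their identifier in the GENCODE annotation lifted to GRCh37, which gave lengths; coordinates printed are GRCh38. The labels name the longest transcript of each gene. Rows that name no TU held 66.5% to 68.6% of an RNA-seq library's records and 86.5% or 88.6% of a PRO-seq library's, and were left out.

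TPM was computed from summed counts with exon length (RNA-seq) or span minus 1000 bp (PRO-seq), since 500 bp at each end were left out. TUs of mRNAs, lincRNAs, antisense genes and pseudogenes were compared with the median mRNA by the two-sided quasi-likelihood test of edgeR (version 4.0.16, R 4.3.3), with TMM normalization, length offsets and Benjamini-Hochberg adjustment over 9925 TUs. DESeq2 (version 1.42.0) was an alternative. Other steps used Python 3.11.15. The fit was tested on simulated data.

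The members, lists and tests were chosen with earlier results of these data known. All members are named. Values in every library are given for the longest and shortest member of each role, for members without an estimate and for the highest and lowest in RNA-seq, and of the other replication genes the 3 longest and 3 shortest are named. Alternatives changed the normalization, the model, the length removed, the minimums, the centre, the pseudocount and the libraries. Same-numbered libraries of the assays did not deviate together (correlation -0.0113 over 9837 TUs). The deposited counts do not mark which reads came from the same molecule.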

Additional observations from a re-analysis of the deposited data

Results flagged for a closer look

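In 3 of the 41 members found, Dixon's test at the 95% level set 1 of the 4 RNA-seq libraries apart from the other 3. The test scales by the range within the group, so a flagged value need not be far off. Chance alone flags about 1 in 20 such groups. RFC2, a small subunit of the clamp loader, had 183 TPM in RNA-seq replicate 2 and 163 to 166 TPM in the others. RRM2, the small subunit of ribonucleotide reductase, had 127 TPM in RNA-seq replicate 3 and 136 to 138 TPM in the others. ORC1 had 120 TPM in RNA-seq replicate 3 and 117 TPM in the others.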

How the results depend on the processing

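The count of members called longer (33) was within 1.5 times of that under every alternative but the test of at least 2-fold, which gave 21, and the count of shorter members (3) became 1 with all TUs of at least 1 summed count, 0 in the 2-fold test and 5 with the canonical span. Of all TUs, 7722 of 20624 were shorter at 1 summed count and 4842 of 9728 with the canonical span. In the 2-fold test 2137 of 9925 were longer and 2898 shorter. Leaving out 1 library at a time gave 32 to 33 longer and 3 shorter members, and a median of 1.13 to 1.18. All TUs then gave 3866 to 4001 longer and 4791 to 4944 shorter, of 9887 to 9933 tested. The median (1.14) became 1.91 at 1 summed count, where the median mRNA itself moved by -0.63, 1.28 against mRNAs in the same decile of PRO-seq TPM and 1.24 with the canonical span. At 1 summed count CDT1 (0.02) and ORC1 (0.26) turned to longer values, RFC3 (-0.20) and RRM2 (-2.35) turned with the canonical span, and GINS4 (-0.01) against the same decile of PRO-seq TPM, while GINS4 was called longer with the canonical span (0.19) and at 1 summed count (0.70). Of 813 values of single members under the alternatives, 785 kept direction and, where a test was run, side of the threshold. With the pseudocount no test was run, and only direction was compared. Of the other replication genes, 10 were longer and 4 shorter in the 2-fold test (2137 and 2898 of all 9925 TUs), and 5 were shorter at 1 summed count (7722 of 20624). With the close RNA-seq pairs summed, 22 of them were longer and 8 shorter (3963 and 4916 of all 9925 TUs), against 24 and 8. Without subunits below the minimum, 3 complexes had the wider range in RNA-seq, against 1. With a replicate block, which the numbers do not warrant, 33 members were longer and 3 shorter, against 3912 and 4861 of all 9925 TUs. Beyond the lengths and TUs that each alternative itself changes, the cause was not tested. The depth limits GINS3 (15 summed PRO-seq counts), RPA3 (122), FEN1 (178) and CDT1 (253). The canonical span, the shared length, the close pairs of libraries and the subunits left out were added after seeing the data.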

Other observations

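Mitosis genes, which follow the replication genes in the cell cycle, were set beside them. Of 30, 28 had an estimate, 23 were longer than the median mRNA (82.1%), 1 was shorter (PLK1, the mitotic kinase, -1.32, edgeR adjusted p = 3.3e-15) and 4 were not called, with a median log2 half-life of 0.81 (quartiles 0.39 and 1.5). Over all TUs 40.4% were longer and 50.0% shorter, and over mRNAs 45.4% and 44.9%. CDK1, the kinase that drives mitotic entry, was the longest at 2.73, with RNA-seq TPM of 554, 576, 581 and 592 and PRO-seq TPM of 144 and 125. Its cyclin partners CCNB1 and CCNB2 lay at 2.16 and 2.06. The replication list had a median of 1.14, and the difference between the lists was not tested.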
